A study of Mus musculus with 12 samples.

Results

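The Cyp4a genes of the mouse encode microsomal cytochrome P450 enzymes that hydroxylate the end carbon of fatty acids, and 6 of them were followed over 1 day in liver. They were the rows of the deposited exon count table that carry the symbols Cyp4a10, Cyp4a14, Cyp4a31, Cyp4a32, Cyp4a12a and Cyp4a12b, 6 of 22618 genes in all, and all 6 passed the filter on low counts that left 17142 genes for testing. The livers came from male C57BL/6j mice aged 12 to 16 weeks that lacked both cryptochrome genes (Cry1/2 DKO), were raised conventionally and were fed at night. Total RNA was sequenced at zeitgeber time (ZT) 14, 18 and 22, called night here, and at ZT02, ZT06 and ZT10, called day, with 2 libraries at each of the 6 time points, a total of 12. Darkness starts at ZT12 by convention, although no source used here gives the light schedule. Every group carried the same double knockout, and the wild-type mice that the design text mentions were not analysed here. The labels do not tie libraries to separate animals, so a p-value here reflects library-to-library spread, which may be technical. In some tests that spread also includes differences between time points.

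Omega-hydroxylation is the first step of a side route of fatty acid breakdown. A Cyp4a enzyme takes electrons from the reductase POR, alcohol and aldehyde dehydrogenases carry the product on to a dicarboxylic acid, and peroxisomes shorten that acid. In mouse liver Cyp4a10 and Cyp4a14 are well known targets of PPARα, the nuclear receptor that senses fatty acids and drives the response to fasting, whereas Cyp4a12a is known for higher expression in males and for dependence on androgen and growth hormone. Cyp4a12 enzymes are also the main source of the vasoactive eicosanoid made by omega-hydroxylation of arachidonic acid in mouse kidney.

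The 6 genes lie side by side on chromosome 4 (mm10/GRCm38, GENCODE M21). From left to right they are Cyp4a12a (ENSMUSG00000066071, 115299046 to 115332815, plus strand), Cyp4a12b (ENSMUSG00000078597, 115411624 to 115439034, plus strand) and Cyp4a14 (ENSMUSG00000028715, 115486200 to 115496142, minus strand). Cyp4a10 (ENSMUSG00000066072, 115518264 to 115533649), Cyp4a31 (ENSMUSG00000028712, 115563649 to 115579015) and Cyp4a32 (ENSMUSG00000063929, 115600969 to 115621602) follow, all on the plus strand. All 6 are annotated as protein-coding.

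Sequence sets how well each gene can be counted apart, so the first 90 coding bases of each gene are shown, from its GENCODE M21 transcript. These bases lie within exons and encode the start of the protein, which in this enzyme family anchors it in the endoplasmic reticulum. Capitals mark bases that differ from Cyp4a10 in the aligned position, except in Cyp4a12b, which is compared with Cyp4a12a. The stretches are chr4:115518322-115518411 for Cyp4a10, chr4:115563717-115563806 for Cyp4a31, chr4:115600975-115601064 for Cyp4a32, chr4:115496024-115496113 (minus strand) for Cyp4a14, chr4:115299128-115299217 for Cyp4a12a and chr4:115411683-115411772 for Cyp4a12b.
Cyp4a10: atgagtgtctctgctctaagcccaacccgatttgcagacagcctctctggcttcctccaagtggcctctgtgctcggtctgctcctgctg
Cyp4a31: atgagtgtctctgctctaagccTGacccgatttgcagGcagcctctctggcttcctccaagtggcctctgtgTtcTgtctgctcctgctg
Cyp4a32: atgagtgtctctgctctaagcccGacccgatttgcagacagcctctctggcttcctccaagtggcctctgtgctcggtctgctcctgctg
Cyp4a14: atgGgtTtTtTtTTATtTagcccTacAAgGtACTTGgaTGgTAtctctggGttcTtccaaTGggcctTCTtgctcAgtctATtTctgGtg
Cyp4a12a: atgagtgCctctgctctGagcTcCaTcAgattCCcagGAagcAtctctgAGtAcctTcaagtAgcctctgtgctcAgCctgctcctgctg
Cyp4a12b: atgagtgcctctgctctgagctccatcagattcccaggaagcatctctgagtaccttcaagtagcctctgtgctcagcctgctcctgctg
In this window Cyp4a32 differed from Cyp4a10 at 1 base, Cyp4a31 at 5, Cyp4a12a at 18 and Cyp4a14 at 34. Cyp4a12b did not differ from Cyp4a12a at any base.

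Over the whole coding sequence the family fell into 3 sequence groups. Cyp4a12a and Cyp4a12b were 98.5% identical, with 23 differences over 1524 aligned bases and an identical run of 342 bases. Cyp4a10, Cyp4a31 and Cyp4a32 were 96.0% to 97.2% identical to each other, and 79.6% to 80.2% identical to the Cyp4a12 pair. Cyp4a14 stood apart, at 75.0% to 75.9% identity with each of the other 5 genes. Of all 100-base coding stretches, the length of 1 sequenced end, Cyp4a14 had 100% found in no other Cyp4a gene of the 6. The share was 86.1% for Cyp4a31, 82.1% for Cyp4a10, 79.9% for Cyp4a32 and 58.7% for each of Cyp4a12a and Cyp4a12b. No source used here gives the counting rule for reads that match several genes, so the split of reads within the other groups is uncertain. For Cyp4a14 no coding stretch was found in a GENCODE M21 transcript of any other gene. Stretches of its own untranslated exons were not searched.

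**Figure D1:**
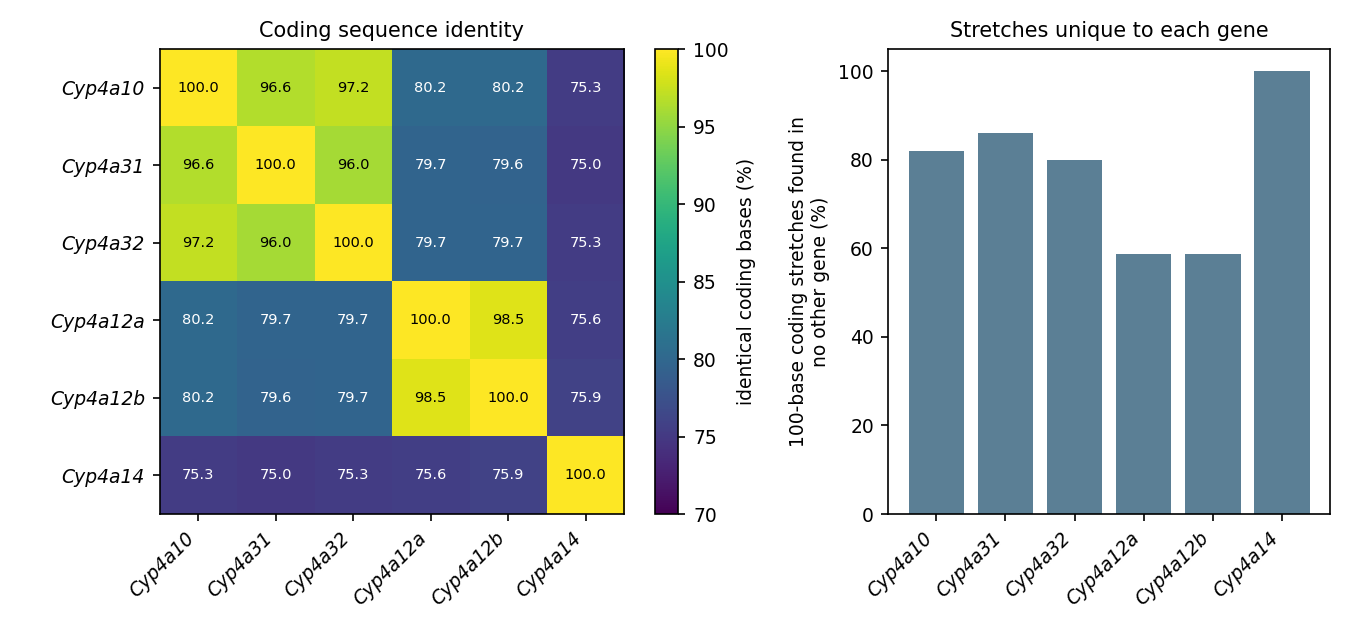
Identity of the coding sequences of each pair of Cyp4a genes (left, percent of aligned bases) and percent of 100-base coding stretches found in only 1 of the 6 genes (right). Cyp4a12a and Cyp4a12b are 98.5% identical and share the most stretches, while no stretch of Cyp4a14 is found in the other 5 genes.

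Library totals were 34715506 to 46074052 exon counts, so a count of 0 allows at most 0.0651 to 0.0864 CPM (counts scaled to library size; 3 counts of the total, counting error only), and all 6 genes stood above that limit in every library. CPM here are scaled by library totals that were first adjusted for composition. Hepatocyte markers such as Alb summed to 101467 to 113927 CPM in night libraries and 106344 to 141165 CPM in day libraries, and those of kidney tubule to at most 0.131 CPM, so the liver label matched its markers. The targeted genes still carried reads in every library, 202 to 544 counts for Cry1 and 462 to 819 for Cry2, and gene counts cannot show which exons they came from. Some libraries were more alike across time points than within them: over 9876 genes scaled to equal variance, ZT02 replicate 1 correlated with ZT06 replicate 1 at r = 0.48 but with ZT02 replicate 2 at r = 0.15, and ZT02 replicate 2 correlated with ZT06 replicate 2 at r = 0.49, against 0.07 between both ZT06 libraries. The night minus day difference of each member is therefore also given with either pair of these libraries left aside. In whole liver, fewer cells of a type and less RNA per cell cannot be told apart.

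The family was dominated by the pair known as PPARα targets. Per kilobase of exon, Cyp4a10 averaged 349 ± 154 CPM (SD, n = 12 libraries) and Cyp4a14 averaged 254 ± 193 CPM. Cyp4a12a averaged 48.0 ± 14 CPM per kilobase and Cyp4a12b 16.4 ± 4.50. Cyp4a32 averaged 8.47 ± 2.69 CPM per kilobase and Cyp4a31 1.10 ± 0.57. Each gene lay above the next of this order in all 12 libraries, except Cyp4a10 over Cyp4a14 and Cyp4a12b over Cyp4a32, which held in 10 libraries each. The order of these 2 neighbour pairs was thus not fixed within the spread of the libraries.

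The Cyp4a genes did not move as 1 block over the day. Cyp4a14 and Cyp4a10, the PPARα targets, were lower at night by 3.72-fold and 1.94-fold, and both calls passed the test over all genes. The close copies of Cyp4a10 also had lower night values, but without a call. Cyp4a12a, known as male-biased, and its close copy Cyp4a12b had the opposite sign. Their night values were 1.35-fold and 1.33-fold above day values, with no call.

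**Figure D2:**
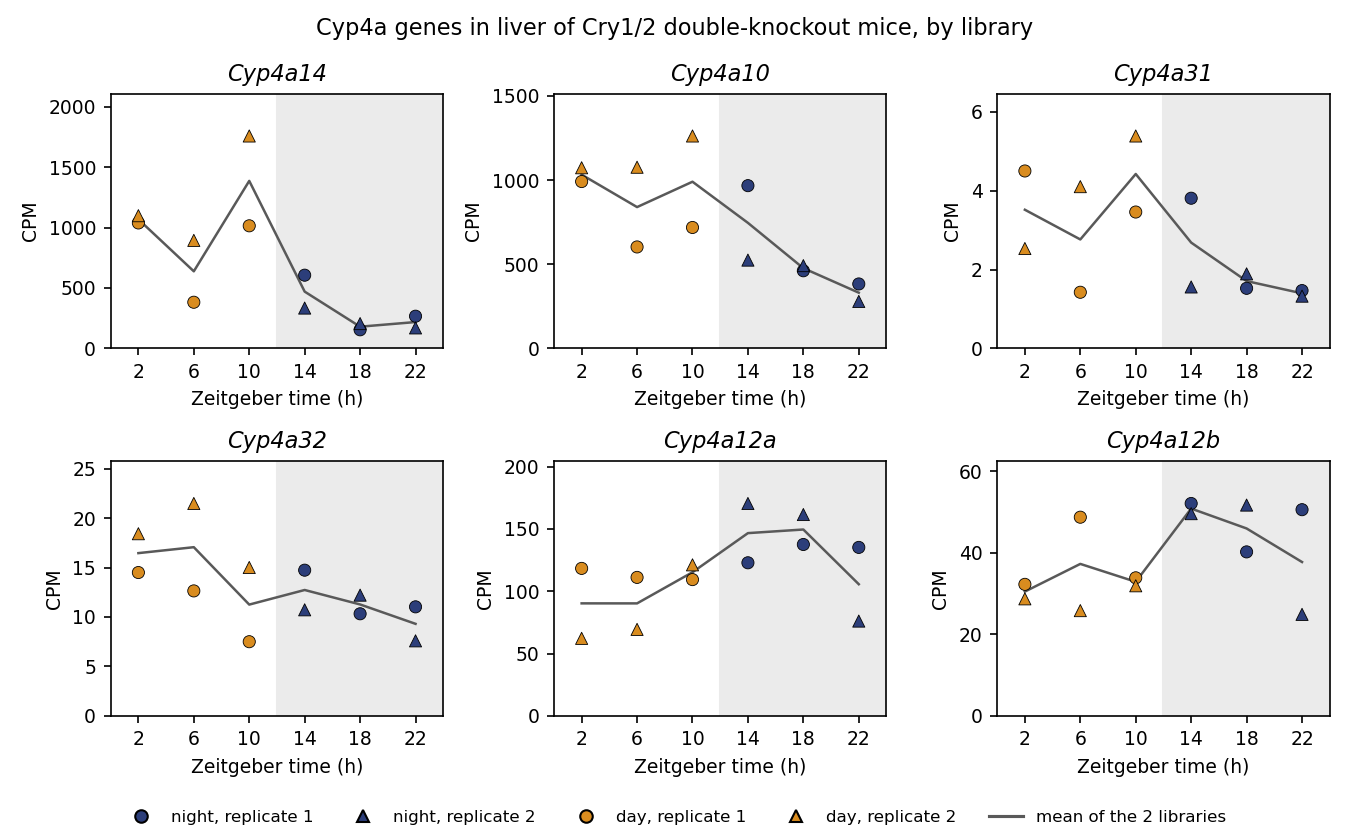
Level of each Cyp4a gene in CPM (vertical axes, each starting at 0 and scaled to its gene) by zeitgeber time (h), with night time points shaded. Symbols are single libraries, coloured by night or day and shaped by replicate number, and the line joins the means of the 2 libraries at each time; Cyp4a14 lies at or below 606 CPM in every night library and at or above 382 CPM in every day library.

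Cyp4a14 encodes a strongly inducible fatty acid hydroxylase and showed the widest swing of the 6 genes. It stood at 1039 and 1099 CPM at ZT02, 382 and 894 CPM at ZT06, and 1015 and 1759 CPM at ZT10 in the 2 libraries of each time. At ZT14 it stood at 606 and 334 CPM, at ZT18 at 154 and 205 CPM, and at ZT22 at 266 and 169 CPM. All 6 night libraries lay below the day median of 1027 CPM, and 5 of them lay below the lowest day library; ZT14 replicate 1 and ZT06 replicate 1 made the groups overlap. The mean was 289 ± 169 CPM at night and 1031 ± 442 CPM by day (SD, n = 6 each).

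The night minus day difference of Cyp4a14 was -1.90 ± 0.24 on the log2 scale (SE; edgeR quasi-likelihood test, Benjamini-Hochberg adjusted p = 0.00249 over all genes). Of the 6 Cyp4a genes, 2 were called lower at night and 0 higher, where 4.89% of all tested genes were called lower (839) and 4.8% higher (823; 624 lower and 1077 higher with scaling by total counts alone). Unadjusted, 5 of the 6 had a p under 0.05 in that test, in opposite directions. Cyp4a14, Cyp4a10 and Cyp4a31 were lower at night, and Cyp4a12a and Cyp4a12b were higher. The share of all genes at that unadjusted threshold is not given here. DESeq2 also called 0 of the 6 higher. The call of Cyp4a14 held in all 21 alternative fits, with adjusted p-values up to 0.0162. Its difference was -2.04 with ZT02 replicate 2 and ZT06 replicate 1 left aside, and -1.66 with ZT02 replicate 1 and ZT06 replicate 2 left aside.

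Cyp4a14 was also the single Cyp4a gene called for a 24 h rhythm, 1 of 6 against 12% of all tested genes. Its fitted range from trough to peak was 7.46-fold, with the peak at ZT 7.04 (edgeR, adjusted p = 0.0192). A least-squares fit to log2 CPM gave 5.97-fold (95% interval 2.13 to 16.8) and a peak at ZT 7.22 ± 0.98 h (SE). Both peak times come from a single fitted cosine. The means were 1069 CPM at ZT02, 638 CPM at ZT06 and 1387 CPM at ZT10. The time point nearest the fitted peak thus had the lowest day mean, and the SE does not cover a misfit of the curve. The 24 h call was lost without ZT18 replicate 1 (adjusted p = 0.0594) or ZT18 replicate 2 (adjusted p = 0.0518), and the range rose to 10.5-fold without ZT06 replicate 1. In the test of any difference between time points, which assumes no shape, Cyp4a14 was again the single member called (1 of 6, against 4.82% of all genes; edgeR adjusted p = 0.0132), a call that was lost without either ZT18 library (adjusted p up to 0.0608).

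Cyp4a10 encodes the other PPARα-inducible enzyme of the family and had the highest mean per kilobase over all 12 libraries, although Cyp4a14 lay above it in both ZT10 libraries. It stood at 991 and 1073 CPM at ZT02, 603 and 1077 CPM at ZT06, and 718 and 1262 CPM at ZT10. At ZT14 it stood at 967 and 525 CPM, at ZT18 at 461 and 492 CPM, and at ZT22 at 383 and 279 CPM. All night libraries but ZT14 replicate 1 lay below the lowest day library, which was ZT06 replicate 1, so the groups overlapped through these libraries. The night mean was 518 ± 237 CPM and the day mean 954 ± 247 CPM (SD, n = 6 each).

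Between night and day, Cyp4a10 differed by -0.96 ± 0.20 on the log2 scale (edgeR, adjusted p = 0.0167). The call was lost without ZT18 replicate 1 (adjusted p = 0.0614), without ZT18 replicate 2 (0.0526) or with ZT02 replicate 1 and ZT06 replicate 2 left aside (0.0534), while the difference itself stayed between -1.13 and -0.80 in every fit without 1 library. It was -1.05 with ZT02 replicate 2 and ZT06 replicate 1 left aside, and -0.81 with the other pair left aside. Its 24 h range was 2.58-fold, with the fitted peak at ZT 7.57, although its mean at ZT06 (840 CPM) was the lowest day mean. Cyp4a10 did not pass the 24 h test (edgeR adjusted p = 0.0684). That test was passed by DESeq2 (adjusted p = 0.0301), without ZT06 replicate 1 (0.0286) and with ZT02 replicate 2 and ZT06 replicate 1 left aside (0.0402). With the counts of Cyp4a31 and Cyp4a32 added to those of Cyp4a10, the difference was -0.95 (edgeR adjusted p = 0.0174). Cyp4a31 held at most 0.474% and Cyp4a32 at most 2.79% of this sum, so it could hardly differ from Cyp4a10 alone. The sum cannot show whether reads of the copies were counted as Cyp4a10 or left out.

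Cyp4a31 and Cyp4a32 are the copies closest to Cyp4a10 and were present at low levels. Cyp4a31 ranged over 1.32 to 3.81 CPM with a median of 1.54 CPM in night libraries, and over 1.42 to 5.39 CPM with a median of 3.78 CPM in day libraries. ZT14 replicate 1 was the highest night library, as it was for Cyp4a10 and Cyp4a14, ZT06 replicate 1 was the lowest day library, and the groups overlapped. The night minus day difference was -0.92 ± 0.30 on the log2 scale, which was not called (edgeR adjusted p = 0.0780). It was called by DESeq2 (adjusted p = 0.0109), without ZT06 replicate 1 (-1.11, 0.0288) and with ZT02 replicate 2 and ZT06 replicate 1 left aside (-1.22, 0.0323). It was smaller at -0.60 without ZT06 replicate 2 (adjusted p = 0.205) and at -0.44 with ZT02 replicate 1 and ZT06 replicate 2 left aside (0.361). The raw counts behind it were 51 to 142 in night libraries and 57 to 231 in day libraries.

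Cyp4a32 ranged over 7.59 to 14.7 CPM with a median of 10.9 CPM in night libraries, and over 7.50 to 21.5 CPM with a median of 14.7 CPM in day libraries. The lowest value of all was in a day library, ZT10 replicate 1, and 3 day libraries lay above every night library. The difference was -0.41 ± 0.19 on the log2 scale and was not called (edgeR adjusted p = 0.201), nor was it in any of 21 alternatives, among them -0.46 with ZT02 replicate 2 and ZT06 replicate 1 left aside and -0.32 with the other pair left aside. Cyp4a31 held 0.231% to 0.474% of the counts of the 3 close copies in any library and Cyp4a32 1.03% to 2.79%, so that reads of Cyp4a10 assigned to the wrong copy could make up a visible part of the minor genes. That possibility was not tested.

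Cyp4a12a, the male-biased member, had mostly higher night values, without a call. It stood at 118 and 62.2 CPM at ZT02, 111 and 69.4 CPM at ZT06, and 109 and 121 CPM at ZT10. At ZT14 it stood at 123 and 170 CPM, at ZT18 at 137 and 162 CPM, and at ZT22 at 135 and 76.0 CPM. Of the 6 night libraries, 5 lay above the highest day library, and ZT22 replicate 2 lay well below it. The mean was 134 ± 33.4 CPM at night and 98.5 ± 25.9 CPM by day (SD, n = 6 each).

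For Cyp4a12a the difference between night and day was +0.43 ± 0.19 on the log2 scale, which was not called (edgeR adjusted p = 0.182; 0.0601 to 0.414 over the 22 alternatives). It was +0.43 with ZT02 replicate 2 and ZT06 replicate 1 left aside, and +0.52 with the other pair left aside. Its 24 h fit had a range of 1.78-fold with the peak at ZT 15.7, later than that of Cyp4a14 at ZT 7.04, and did not pass the test (adjusted p = 0.0820). The 24 h test was passed by DESeq2 (adjusted p = 0.0241) and with scaling by total counts alone (0.0476). The least-squares 95% interval of the range was 1.16-fold to 2.93-fold.

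Cyp4a12b ranged over 24.9 to 52.1 CPM with a median of 50.1 CPM in night libraries, and over 25.8 to 48.7 CPM with a median of 32.1 CPM in day libraries. In 4 of 6 night libraries it lay above the highest day library, ZT06 replicate 1, and ZT22 replicate 2 held the lowest value of all. The difference was +0.41 ± 0.18 on the log2 scale and the 24 h range 1.51-fold with the peak at ZT 15.8, neither of which was called (edgeR adjusted p = 0.179 and 0.229). With ZT02 replicate 2 and ZT06 replicate 1 left aside the difference was +0.57, and with the other pair left aside +0.32, again without a call. Its share of the summed counts of Cyp4a12a and Cyp4a12b was 22.5% to 29.8% at night and 20.8% to 31.6% by day, ranges that overlapped. The summed counts of both genes gave a difference of +0.43 (edgeR adjusted p = 0.168), close to that of Cyp4a12a alone.

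Ratios between members within a library need no library size and test whether the difference of a gene is unlike that of Cyp4a14. Night minus day, the log2 ratio to Cyp4a14 differed by 0.93 for Cyp4a10, 1.01 for Cyp4a31, 1.49 for Cyp4a32, 2.32 for Cyp4a12a and 2.28 for Cyp4a12b. Each was above 0 in an exact two-sided permutation test over the 12 libraries (n = 6 each; p = 0.00649 for Cyp4a10, 0.00216 for Cyp4a31, 0.00866 for Cyp4a32, and 0.00433 for Cyp4a12a and Cyp4a12b). Adjusted over the 5 ratios the p-values were 0.00722 to 0.00866, and the smallest p that 924 arrangements allow is 0.00216. The 5 differences kept sign and call in all 14 alternatives each, with adjusted p-values up to 0.0173. In these libraries Cyp4a14 fell more at night than each of the other 5 genes relative to its own day level. These ratios were chosen with earlier results of these data known, and Cyp4a14 has the largest fall of the 6 genes. The p-values do not allow for that choice. The 5 ratios also share Cyp4a14 as denominator, and close copies may share reads, so they are not 5 separate results.

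In plain counts, Cyp4a14 had 0.333 to 0.695 counts for each count of Cyp4a10 in night libraries (median 0.617) and 0.634 to 1.41 in day libraries (median 1.04). Against Cyp4a12a it had 1.12 to 4.93 counts for each count in night libraries (median 1.96) and 3.44 to 17.7 in day libraries (median 11.1). The ratio to Cyp4a31 was the one whose night and day libraries did not overlap. For the other 4 ratios, ZT06 replicate 1 was the day library that lay above the lowest night library.

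**Figure D3:**
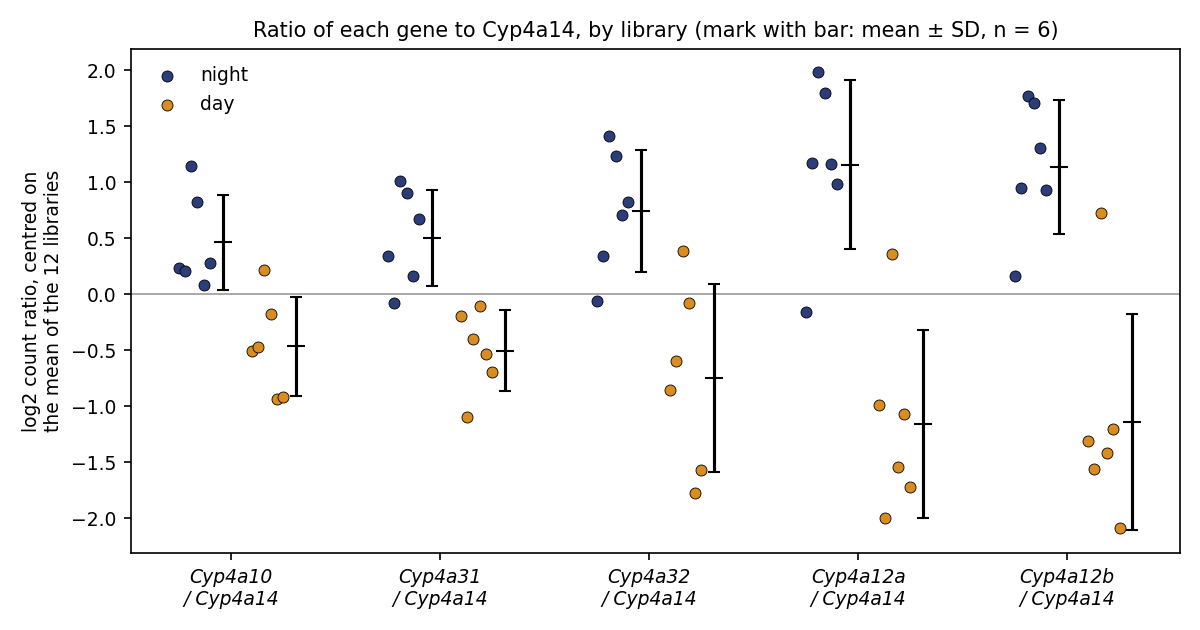
Log2 ratio of the counts of each of 5 Cyp4a genes to those of Cyp4a14 (vertical axis, centred on the mean of the 12 libraries), with 6 night libraries left of 6 day libraries for each gene; dots are libraries and the mark with bar is mean ± SD. Night ratios lie above day ratios on average by 0.93 for Cyp4a10 and by 2.32 for Cyp4a12a.

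The make-up of the family changed with these ratios. The 6 genes together summed to 558 to 1766 CPM in night libraries (median 885) and 1158 to 3195 CPM in day libraries (median 2145). They took 0.0551% to 0.182% of all counts at night and 0.110% to 0.332% by day. Cyp4a10 and Cyp4a14 made up 75.4% to 89.0% of the counts of the family in night libraries (median 77.7%) and 85.0% to 95.1% in day libraries (median 93.3%). In every library Cyp4a12a, the male-biased gene, held the largest part of the remainder.

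Over the 12 libraries Cyp4a10, Cyp4a14 and Cyp4a31 varied together, and Cyp4a32 did so less closely. Log2 CPM of Cyp4a10 correlated with that of Cyp4a14 at r = 0.91 and with that of Cyp4a31 at r = 0.88, and Cyp4a14 with Cyp4a31 at r = 0.88. Cyp4a32 followed Cyp4a10 at r = 0.75 and Cyp4a14 at r = 0.53. Cyp4a12a and Cyp4a12b correlated at r = 0.81, and both had weak negative values with the other 4 genes, from -0.40 to -0.15. These correlations describe 12 libraries that share time points and depth, and for close copies they also share reads.

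A defined sequence window upstream was at hand for 1 of the 6 genes, Cyp4a32, in the RefSeq promoter table (GRCm38.p6; 250 bases before to 50 after the start). Neither the PPAR-type direct repeat (AGGTCA copies with 1 base between, called DR1; up to 2 mismatches) nor the STAT5-type motif TTCNNNGAA was found there on either strand. Of 32851 promoters in that table, 0.0396% held the exact DR1, 3.86% held it with at most 2 mismatches, and 8.3% held the STAT5-type motif. The missing matches say only that these letters are not in this window.

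Cell type markers were compared with the swing of Cyp4a14 and Cyp4a10. Pericentral hepatocyte markers summed to 5505 to 7185 CPM in night libraries and 6269 to 9074 CPM in day libraries, with 0 of 7 called between night and day or in the 24 h test by edgeR and also 0 of 7 by DESeq2, and a median difference of -0.05 on the log2 scale. At an unadjusted p under 0.05, edgeR had 2 of these 7 between night and day and 1 in the 24 h test. Periportal markers summed to 2220 to 4175 CPM at night and 3537 to 6881 CPM by day, with a median difference of -0.29. Between night and day 1 of 5 was called by edgeR and 2 of 5 by DESeq2, and 3 had an unadjusted edgeR p under 0.05. In the 24 h test these counts were 0, 2 and 3. The marker called by edgeR was Pck1, which encodes a gluconeogenic enzyme, with a night minus day difference of -1.07. Pancreatic acinar markers were highest in ZT14 replicate 2, at 28.8 CPM in sum, without which the difference of Cyp4a14 was -1.78 and that of Cyp4a10 -0.83, both still called. Cholangiocyte markers were highest in ZT22 replicate 1, at 21.5 CPM in sum, as were adipocyte markers, at 1.52 CPM. Without that library the difference of Cyp4a14 was -2.02 and that of Cyp4a10 -1.04. Erythroid markers had a median difference of 0.63, with 0 of 5 called between night and day by edgeR and 2 at an unadjusted p under 0.05. The part of the periportal, cholangiocyte, adipocyte and erythroid markers in the results on Cyp4a14 and Cyp4a10 was not tested.

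The rest of the pathway was read from lists of genes, each described by its counts and its median difference beside a median of 0.01 over all tested genes. Of all tested genes, edgeR called 4.89% lower at night and 4.8% higher, 12% in the 24 h test and 4.82% for any difference. Counts of 0 or 1 in the short lists do not set them apart from these shares. Other CYP4 genes, which hydroxylate leukotrienes, vitamins and long fatty acids, were next. Of 9 tested, 0 were called between night and day (edgeR; 1 had an unadjusted p under 0.05 and 1 was called lower by DESeq2), and 0 passed the 24 h test (2 unadjusted, 2 by DESeq2), at a median difference of -0.17. In the test of any difference between time points 1 of the 9 was called, Cyp4f14 (edgeR adjusted p = 0.0480). The most abundant were Cyp4v3, at 605 to 1004 CPM with a median of 750 CPM at night and 683 to 809 CPM with a median of 765 CPM by day, and Cyp4f14, at 196 to 232 CPM with a median of 216 CPM at night and 178 to 287 CPM with a median of 223 CPM by day. Their night minus day differences were 0.04 ± 0.13 and -0.07 ± 0.06 on the log2 scale, and that of Cyp4v3 changed sign in 4 of the fits without 1 library.

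Of 10 tested genes for electron donors and for the alcohol and aldehyde dehydrogenases that act after the Cyp4a step, 2 fell at night and 0 rose (edgeR; 0 rises also at an unadjusted p under 0.05 and by DESeq2), at a median of -0.05. Por, the P450 reductase, stood at 255 to 375 CPM at night and 414 to 549 CPM by day, with no overlap (log2 difference -0.57 ± 0.09, edgeR adjusted p = 0.00495). Aldh3a2, the fatty aldehyde dehydrogenase, stood at 225 to 347 CPM at night and 279 to 459 CPM by day (-0.48 ± 0.09, adjusted p = 0.00985). Adh4, an alcohol dehydrogenase, was called in the 24 h test with a range of 1.47-fold and a peak at ZT 0.60 (edgeR adjusted p = 0.0401), a call lost in 9 of the 12 fits without 1 library.

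Of 26 tested genes of peroxisomal dicarboxylic acid oxidation, 6 fell and 1 rose at night, and 8 passed the 24 h test, at a median difference of -0.19. Acot3, a peroxisomal acyl-CoA thioesterase, stood at 3.45 to 13.0 CPM at night and 13.9 to 92.8 CPM by day (log2 difference -2.59 ± 0.32, edgeR adjusted p = 0.00224), a larger difference than that of Cyp4a14. Abcd2, a transporter of very long fatty acids into peroxisomes, differed by -1.91 ± 0.40, Acot4, which releases dicarboxylic acids from coenzyme A, by -0.96 ± 0.12, and Ehhadh, the bifunctional enzyme of peroxisomal oxidation, by -0.68 ± 0.10. Nudt7, a peroxisomal coenzyme A hydrolase named after its values were seen, was the gene that rose, by 0.47 ± 0.12. The calls of Nudt7 (edgeR adjusted p = 0.0335) and Abcd2 (0.0170) were not kept in every fit without 1 library. In fits without 1 library 3 to 10 members were called lower and 0 to 1 higher, and 3 to 13 passed the 24 h test.

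Of 28 tested other PPARα targets, 7 fell and 1 rose, and 7 passed the 24 h test, at a median of -0.22. Acot1, a cytosolic acyl-CoA thioesterase, stood at 20.3 to 32.1 CPM at night and 36.4 to 67.6 CPM by day, without overlap (-1.07 ± 0.16, edgeR adjusted p = 0.00495). Acot2 differed by -0.95 ± 0.26 (edgeR adjusted p = 0.0462), and Cpt1a, which admits fatty acids to mitochondria, by -0.60 ± 0.15 (0.0357). Cd36, a fatty acid transporter, differed by -0.56 ± 0.12 (0.0204). None of these calls was kept in every fit without 1 library. The difference ranged there from -1.17 to -0.55 for Acot2 and from -0.72 to -0.43 for Cpt1a. Mgll, monoacylglycerol lipase, was the gene that rose, by 0.56 ± 0.09, and was likewise named after its values were seen. Acot1, Acot2, Acot3 and Acot4 are neighbouring close copies, so their counts are uncertain. Fits without 1 library called 1 to 8 of this list lower, and 2 to 8 passed the 24 h test.

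**Figure D4:**
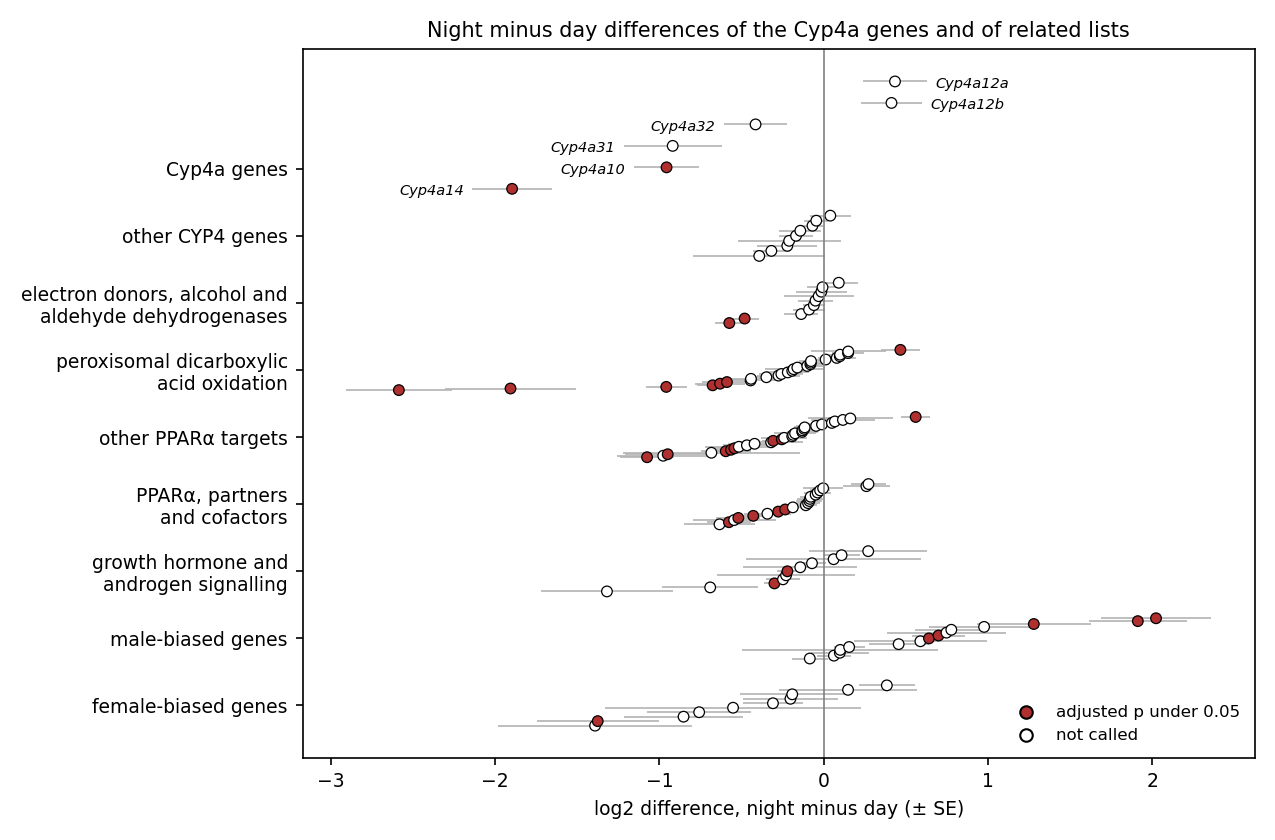
Night minus day differences (horizontal axis, log2 scale, ± SE) of the 6 Cyp4a genes and of every tested gene of 8 lists, filled where the edgeR adjusted p was under 0.05. Cyp4a14 (-1.90) lies among the lowest values shown, beside Acot3 and Abcd2 of the peroxisomal list, whereas the called genes of the male-biased list all lie on the positive side with Cyp4a12a and Cyp4a12b.

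Ppara itself, the receptor gene, stood at 122 to 159 CPM with a median of 134 CPM at night and 145 to 256 CPM with a median of 180 CPM by day, and was called lower at night (-0.52 ± 0.13, edgeR adjusted p = 0.0355), a call lost in 10 of the 12 fits without 1 library. It was 1 of 5 genes called lower among 20 tested genes of PPARα partners and cofactors, with 0 called higher (edgeR; 1 unadjusted, 0 by DESeq2), 4 called in the 24 h test and a median of -0.10. The others named by rule were Ppargc1a (-0.58 ± 0.13), Sirt1 (-0.43 ± 0.10) and Crebbp (-0.28 ± 0.06), coactivator or deacetylase genes. None of these calls was kept in every fit without 1 library. Fits without 1 library called 0 to 5 of this list lower, and 1 to 5 passed the 24 h test.

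Cyp4a12a is linked to growth hormone and androgen signalling, and of 11 tested genes of those routes 2 were called lower at night, Stat5b (-0.30 ± 0.07) and Jak2 (-0.22 ± 0.06), at a median of -0.22. Fits without 1 library called 0 to 3 of them lower, and the call was lost in 5 of the 12 for Stat5b and in 11 for Jak2. None of the 11 passed the 24 h test (edgeR, 0 called; 1 unadjusted, 1 by DESeq2). Of 15 tested male-biased liver genes, 5 rose at night and 0 fell (edgeR, with 0 falls also unadjusted and by DESeq2). In this list 4 passed the 24 h test, and the median was 0.64. Of the 5 that rose, Selenbp2, Ugt2b38 and Hsd3b5 kept the call in every fit without 1 library, and Mup21 and Gstp2 did not. Selenbp2 (2.02 ± 0.34), Ugt2b38 (1.91 ± 0.30), Mup21 (1.28 ± 0.35) and Gstp2 (0.70 ± 0.16) were named by rule and Hsd3b5 (0.64 ± 0.07) as the remaining call; several belong to families of close copies, and fits without 1 library called 3 to 6 of the list higher, with 3 to 6 past the 24 h test. Of 10 tested female-biased genes 1 was called lower, Cyp2b9 (-1.38 ± 0.37; lost in 11 of the 12 fits without 1 library), at a median of -0.43, and 0 passed the 24 h test (edgeR; 2 unadjusted, 1 by DESeq2).

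Over the 12 libraries the genes of each list were also set beside Cyp4a14 and Cyp4a12a. Of the 28 other PPARα targets, 22 correlated positively with Cyp4a14 (median r = 0.50, highest Acot1 at 0.87; median over all genes 0.00), and 9 did so with Cyp4a12a (median r = -0.09). All 15 male-biased genes correlated positively with Cyp4a12a (median r = 0.40, highest Gstp2 at 0.62), and 1 of them did so with Cyp4a14 (median r = -0.56). Of the 11 growth hormone and androgen signalling genes, 8 correlated positively with Cyp4a14 (median r = 0.33) and 1 with Cyp4a12a (median r = -0.18), the reverse of the male-biased genes. The 10 female-biased genes had 5 positive values with each (median r = 0.12 and 0.06). Of the peroxisomal genes 19 of 26 were positive with Cyp4a14 (median r = 0.32) and 9 with Cyp4a12a (median r = -0.12). Ppara correlated with Cyp4a14 at r = 0.74 and with Cyp4a12a at r = -0.83. These values cover 12 libraries that share time points, and are a description.

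Among 9183 genes of at least 5 CPM compared, the 5 with the highest correlation of log2 CPM with Cyp4a14 were Ttpa, the tocopherol transfer protein (r = 0.93), Dcaf6 (0.92), Mpc2, a subunit of the mitochondrial pyruvate carrier (0.90), Pde2a (0.89) and Bcas3 (0.88). Of these, Ttpa stood at 411 ± 65.1 CPM at night and 579 ± 69.5 CPM by day (SD, n = 6 each; log2 difference -0.50 ± 0.08, edgeR adjusted p = 0.00633). For Cyp4a12a, 4 genes at the top of the same order were Hccs (0.91), Tank (0.89), Phf6 (0.88) and Snap23 (0.87). Their night minus day differences were 0.10 to 0.40, of which that of Phf6 was called (0.40 ± 0.10, edgeR adjusted p = 0.0361). The call of Phf6 was not kept in every fit without 1 library.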

How the data were processed

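The deposited values were raw exon counts per gene, whole numbers that the authors made without normalization, in 1 table of 12 libraries. Per the labels' protocols, libraries were stranded, rRNA-depleted and paired-end; the submitters' processing notes name STAR 2.4.0i and mm10. How reads were counted (tool, strand setting, annotation, reads that match several genes) is not given in the sources used here, so overlapping or antisense genes cannot be told apart. Groups came from the library titles. Pairs of libraries of a time point differed beyond sampling noise, with 15.5 to 92.1 for chi-square over its degrees of freedom.

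The analysis used edgeR 4.0.16 in R 4.3.3: TMM factors, filterByExpr on time points (min.count 10, min.total.count 15), glmQLFit with glmQLFTest, and Benjamini-Hochberg adjustment over 17142 genes, called under 0.05. A 6-group fit gave night minus day and any time difference, and cosine and sine terms of 24 h gave range and peak. Intervals came from least squares on log2 CPM (prior count 2; 9 residual degrees of freedom). The SE of a log2 difference was taken as that difference over the square root of F. Ratios to Cyp4a14 (0.5 added to each count) were tested by exact permutation. That test treats all 12 libraries as exchangeable, so its spread includes differences between time points within night or day. The spread of the 24 h fit includes departures of time points from the cosine. Alternatives were DESeq2 1.42.0, limma-voom (limma 3.58.1), RLE factors, total counts, other filters, a replicate block, summed copies and left-out libraries. Coding sequences came from GENCODE M21 and were aligned with MAFFT 7.526; CPM per kilobase used the union of exons there. The night minus day and 24 h tests were checked on simulated counts, and the permutation test on a simulated series of values. The test of any difference had no pass criterion of its own there.

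The members, lists, tests and alternatives were chosen with earlier results of these data known. Of each list, up to 4 called members (24 h or night minus day) were named, those with the largest night minus day difference among genes averaging 1 CPM or more, or, with none called, the 2 most abundant; the 5 genes most correlated with Cyp4a14 and with Cyp4a12a were also named, leaving out clone and model names. For Cyp4a12a, 1 of the 5 is not reported here.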

Additional observations from a re-analysis of the deposited data

Results flagged for a closer look

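Within the 6 night or 6 day libraries of each member, 12 groups in all, 3 had a highest library far from the rest. The measure was Dixon's ratio (its 95% limit for 6 samples). Each group pools several time points, so that limit gives no chance rate here, and distance between time points was not separated. Cyp4a10 and Cyp4a31, which may share reads, were flagged in the same library. The highest night value of Cyp4a10 was 967 CPM, found in ZT14 replicate 1 (ratio 0.643). Cyp4a31 stood at 3.81 CPM in the same library (ratio 0.772), and Cyp4a14 was highest there as well without reaching the limit (ratio 0.602). Leaving that library out gave a difference between night and day of -1.13 for Cyp4a10 and -2.06 for Cyp4a14 on the log2 scale, both called. Cyp4a12b stood at 48.7 CPM in ZT06 replicate 1, above the other 5 day libraries (ratio 0.649), a library in which Cyp4a14 and Cyp4a10 had their lowest day values.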

How the results depend on the processing

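The night minus day call of Cyp4a14, the directions of all 6 members and the 5 ratios to Cyp4a14 held under every alternative run. Members called in the 24 h test (1) were 4 by DESeq2, 2 with total counts alone (Cyp4a14 and Cyp4a12a), 3 with ZT02 replicate 2 and ZT06 replicate 1 left aside, and 0 to 4 without 1 library; the 0 arose without either ZT18 library (edgeR; 3 unadjusted) and the 4 without ZT06 replicate 1. Members called between night and day (2) were 1 with ZT02 replicate 1 and ZT06 replicate 2 left aside and 1 to 3 without 1 library. Members called for any time difference (1) were 3 by DESeq2, 2 without a filter, and 0 to 1 without 1 library. Over all genes the 24 h count (2051) was 3416 by DESeq2, 1276 and 568 with these pairs of libraries left aside, and 1201 to 2225 without 1 library. The night minus day count (1662) was 865 and 1107 with the pairs left aside and 611 to 1818 without 1 library. The count of any difference (826) was 2532 by DESeq2 and 174 to 897 without 1 library. Of single-gene results under alternatives, 1635 kept side and sign, 257 lost a call, 43 gained one and 7 changed sign, none of them a called value. The 7 were Cyp4v3 (-0.0982 to 0.146 without 1 library), at -0.00233 without ZT10 replicate 2, -0.0982 without ZT14 replicate 2, -0.0253 without ZT18 replicate 2 and -0.00417 without ZT22 replicate 1, and Adh4 (-0.16 to 0.0382), at 0.0107 without ZT06 replicate 2, 0.0382 without ZT14 replicate 1 and 0.0406 with ZT02 replicate 1 and ZT06 replicate 2 left aside. Of 29 other named genes called between night and day, 12 kept the call in every fit without 1 library (Por, Aldh3a2, Acot3, Ehhadh, Acot4, Acot1, Ugt2b38, Selenbp2, Mgll, Hsd3b5, Ttpa and Dcaf6) and 17 lost it at least once (adjusted p up to 0.137); the cause was not tested.

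Of 15 pairs of same-numbered deviations, 5 correlated above 0.1 (-0.22 to 0.50). Same-numbered libraries of ZT02 and ZT06 were alike (r = 0.48 and 0.49), so replicate numbers may pair some of the libraries. With the replicate block the members called were 1 in the 24 h test, 2 between night and day and 1 for any difference, and the difference of Cyp4a14 was -1.87. Depth limits Cyp4a31 most, at 51 to 231 counts per library.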
